A study of Mus musculus with 12 samples.

Results

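The 10 genes described here are the COMPASS and MLL methyltransferase genes Kmt2a, Kmt2b, Kmt2c, Kmt2d, Setd1a and Setd1b, the related SET domain gene Kmt2e, and the subunit genes Men1, Wdr5 and Ash2l. They were taken by symbol from the 55291 genes of a raw count table, and all 10 were among the 15825 genes expressed enough to be tested. None of them passed the threshold in any comparison of genotypes. The 7 Kmt2 and Setd1 genes are called the methyltransferase genes here, with Kmt2e counted by its family name. They were positively correlated across the 12 libraries in 21 of 21 pairs, of which 13 had an adjusted p under 0.05 by permutation. Men1, Wdr5 and Ash2l did not follow them.

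COMPASS and MLL complexes place methyl groups on lysine 4 of histone H3 (H3K4), a mark of active promoters and enhancers. SETD1A and SETD1B are the main sources of promoter H3K4 trimethylation, MLL1 and MLL2 (Kmt2a and Kmt2b) act at selected developmental genes and are bound by menin (Men1), and MLL3 and MLL4 (Kmt2c and Kmt2d) monomethylate enhancers. WDR5 and ASH2L belong to the core shared by these complexes. MLL5 (Kmt2e) carries a SET domain but is not a member of COMPASS. In blood, Kmt2a maintains stem cells and is broken and fused to other genes in leukemia, and Kmt2c and Kmt2d are recurrently mutated in blood cancers.

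The cells were Lin-cKit+ (LK) bone marrow cells, which lack markers of mature lineages and carry the receptor cKit, purified by bead sorting from C57BL/6 mice at 12 months of age. There were 3 mice, with 1 library each, of wild type (WT), Kdm6bΔ/+, Asxl1Y588XTg and Asxl1Y588XTg Kdm6bΔ/+. Asxl1Y588XTg mice carry a transgene for a truncated ASXL1 protein and keep their own Asxl1 alleles. In Kdm6bΔ/+ mice, 1 allele of Kdm6b, a demethylase of H3K27me3, was removed by Cre from Mx1Cre, which injection of pI:pC switches on in blood cells and also in other tissues. The promoter of the transgene and the treatment of the control mice are not given in the sources used here.

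Between 14451522 and 23482563 reads were counted on genes per library. Y-linked transcripts were present in 0 of 3 WT, 2 of 3 Kdm6bΔ/+, 1 of 3 Asxl1Y588XTg and 3 of 3 Asxl1Y588XTg Kdm6bΔ/+ libraries, so these comparisons also differ in the sex of the mice. Markers of LK progenitors (8 of 8 tested, among them Kit and Cd34) summed to between 11030 and 14994 CPM (counts scaled to library size). Of these 8, 1 passed the threshold as higher in Asxl1Y588XTg against WT (1.64% of genes tested passed in either direction). In Asxl1Y588XTg Kdm6bΔ/+ against Asxl1Y588XTg, 1 passed as lower (2.09%). Neutrophil markers, which mature cells express most, summed to between 53293 and 81479 CPM, and none of the 9 passed the threshold in any comparison. Normalized counts of Kdm6b were 2142, 2372 and 1869 in WT, 1622, 1529 and 1346 in Kdm6bΔ/+, 2270, 2303 and 2187 in Asxl1Y588XTg, and 1649, 1873 and 1910 in Asxl1Y588XTg Kdm6bΔ/+. Every Kdm6bΔ/+ library lay below every WT library, and every Asxl1Y588XTg Kdm6bΔ/+ library below every Asxl1Y588XTg library, although neither difference passed the threshold (adjusted p = 0.279 and 0.0717, edgeR quasi-likelihood test, adjusted by Benjamini-Hochberg). Mouse Asxl1 counts overlapped between genotypes in all comparisons.

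Promoter windows from RefSeq are shown for Kmt2a, Kmt2c and Kmt2d, the 3 members with the largest estimates against Kdm6bΔ/+ below, and for Wdr5, which did not follow them. A window of 300 bases was found for 6 of the 10 members. Each runs from 250 bases before to 50 after the start of the gene on build GRCm38.p6, at chr9:44881240-44881539 (minus strand), chr5:25498734-25499033 (minus strand), chr15:98871156-98871455 (minus strand) and chr2:27514897-27515196 (plus strand). They are written in the direction of the gene, with CpG dinucleotides in capitals.
Kmt2a: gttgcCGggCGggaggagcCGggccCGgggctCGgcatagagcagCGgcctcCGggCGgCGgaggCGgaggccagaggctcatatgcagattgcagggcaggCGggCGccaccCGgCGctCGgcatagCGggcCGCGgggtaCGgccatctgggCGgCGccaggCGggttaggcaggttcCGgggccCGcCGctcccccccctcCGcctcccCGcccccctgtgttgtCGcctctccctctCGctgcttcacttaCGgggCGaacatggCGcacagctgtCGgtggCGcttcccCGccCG
Kmt2c: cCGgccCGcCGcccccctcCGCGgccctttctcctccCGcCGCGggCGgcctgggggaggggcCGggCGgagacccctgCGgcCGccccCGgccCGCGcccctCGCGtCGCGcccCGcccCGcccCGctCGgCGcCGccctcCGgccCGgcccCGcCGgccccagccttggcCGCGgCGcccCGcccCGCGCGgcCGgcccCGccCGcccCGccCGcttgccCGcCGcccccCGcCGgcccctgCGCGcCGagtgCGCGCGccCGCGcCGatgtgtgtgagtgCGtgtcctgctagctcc
Kmt2d: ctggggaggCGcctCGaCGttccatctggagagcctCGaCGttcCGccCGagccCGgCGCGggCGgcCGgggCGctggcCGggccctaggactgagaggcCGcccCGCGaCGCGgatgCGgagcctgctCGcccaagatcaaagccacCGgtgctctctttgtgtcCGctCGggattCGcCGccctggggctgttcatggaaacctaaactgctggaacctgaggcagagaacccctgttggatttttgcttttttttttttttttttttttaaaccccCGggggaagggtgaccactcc
Wdr5: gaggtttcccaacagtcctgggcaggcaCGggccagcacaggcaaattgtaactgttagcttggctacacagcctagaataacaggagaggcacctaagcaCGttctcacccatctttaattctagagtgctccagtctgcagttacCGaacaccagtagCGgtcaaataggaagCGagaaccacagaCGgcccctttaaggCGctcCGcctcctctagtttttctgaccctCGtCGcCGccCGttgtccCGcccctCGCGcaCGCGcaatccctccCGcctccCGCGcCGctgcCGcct
The Kmt2c window held 56 CpG, more than 99.8% of the 32851 windows in the table, whose median was 7. The windows of Kmt2a, Kmt2d and Wdr5 held 36, 27 and 22. The GC box GGGCGG, searched on both strands, was found 5 times in Kmt2a, 10 times in Kmt2c, 4 times in Kmt2d and 2 times in Wdr5, and at least once in 35.7% of all windows. The CCAAT box CCAAT, on both strands, was not found in these 4 windows and was present in 37.4% of all windows. These are matches of letters, and no binding was measured.

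Levels were compared between genes as CPM per kb of exon. Wdr5, the histone-binding core subunit, had the highest level, with a median of 44.1 over the 12 libraries (41.3 to 54.8). The methyltransferase genes Kmt2e and Kmt2d followed, at 19.8 (18.4 to 23.8) and 19.1 (16.1 to 23.3), then Men1 at 15.9 (14.1 to 18.8) and Setd1b at 13.8 (12.6 to 16.8). Kmt2b (11.3), Ash2l (10.3), Kmt2c (8.98) and Kmt2a (8.11) were lower, and Setd1a was lowest at 5.95 (4.96 to 6.43). Of neighbours in this order, only Wdr5 against Kmt2e and Kmt2a against Setd1a had ranges that did not overlap. Compared within each library, Setd1b was above Kmt2b in 12 of 12 and Kmt2c above Kmt2a in 11 of 12. The other neighbours with overlapping ranges held their order in 9 to 10 of 12. Setd1a shares 3523 of its 6795 exonic bases (51.8%) with Gm49388 on the same strand, a gene with 0 counts in all libraries. Whether reads in the shared part were left out of the counts was not tested, and over the 3272 unshared bases alone its median would be 12.4. Kmt2e shares 972 bases (9.31%) with Srpk2 on the opposite strand. Each member was above the level of between 57.4% (Setd1a) and 94.1% (Wdr5) of genes tested.

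**Figure D1:**
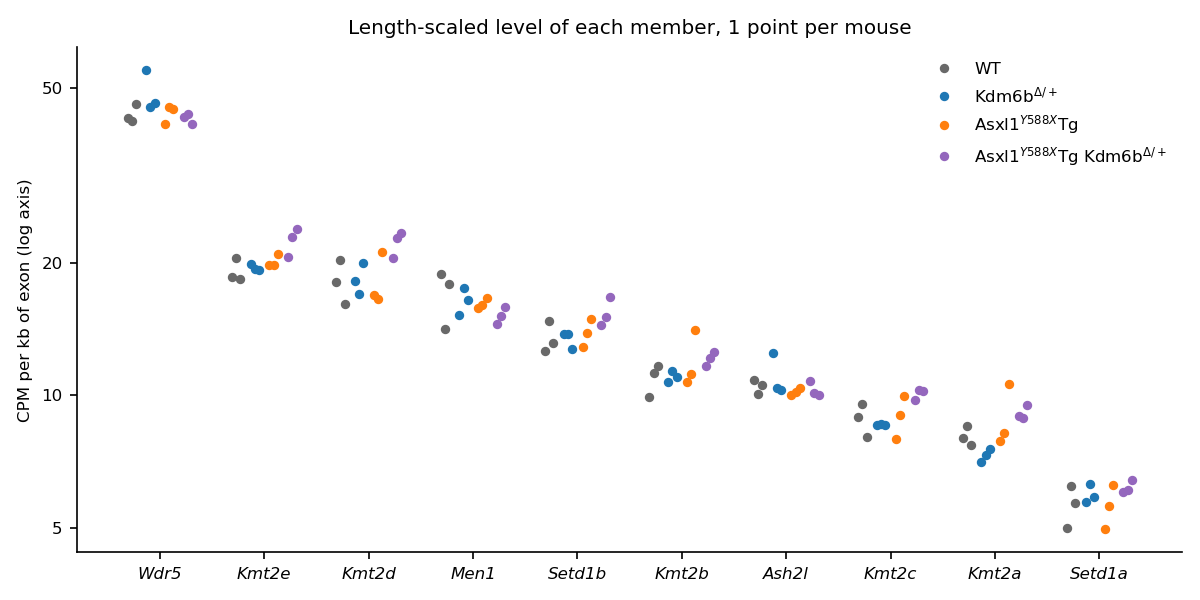
CPM per kb of exon (log axis) of the 10 members, ordered by median, with 1 point per mouse colored by genotype. Wdr5 stands above all others at 41.3 to 54.8, and Setd1a, with shared exons, is lowest at 4.96 to 6.43.

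The first question was whether the truncated ASXL1 protein goes with different levels of these genes. In Asxl1Y588XTg against WT cells, 0 of the 10 members were called at an adjusted p under 0.05, where 1.64% of all genes tested were called. None had an unadjusted p under 0.05 (9.35% of genes tested did), and the genotypes overlapped for all 10 (15.7% of genes tested did not overlap). The median log2 fold change of the members was 0.01, against -0.01 over all genes tested. An offset for exon length and GC content moved these medians to -0.21 and -0.14 and put all 10 members below 0, without a call. With it, 4 members had an unadjusted p under 0.05, all lower, as did 2780 of 15481 genes tested in either direction. Kmt2d, the enhancer methyltransferase, had normalized counts of 6348, 7112 and 5640 in WT and 5932, 5813 and 7431 in Asxl1Y588XTg. The ranges overlapped, with replicate 3 of Asxl1Y588XTg above every WT library, and the log2 fold change was 0.00 (95% interval -0.26 to 0.27). Kmt2a had 2347, 2491 and 2255 in WT and 2305, 2404 and 3104 in Asxl1Y588XTg. Only replicate 3 of Asxl1Y588XTg stood above the WT libraries, and the log2 fold change of 0.14 (-0.12 to 0.40) was -0.01 without it. Kmt2b was also highest in that library, at 2372 against 1811 and 1882 in the other two, with a log2 fold change of 0.13 (-0.13 to 0.39).

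The second question was whether removing 1 Kdm6b allele on the transgenic background goes with different levels. In Asxl1Y588XTg Kdm6bΔ/+ against Asxl1Y588XTg cells, 0 of 10 members were called (2.09% of genes tested), and none was separated between the genotypes (21.2% of genes tested). The unadjusted p was under 0.05 for 2 members, Kmt2d and Kmt2e, both higher in Asxl1Y588XTg Kdm6bΔ/+, where 15.4% of genes tested had such a p. Kmt2d had normalized counts of 7199, 7986 and 8180 in Asxl1Y588XTg Kdm6bΔ/+. Replicate 3 of Asxl1Y588XTg, at 7431, lay within this range, and the other two lay below it. The difference on the log2 scale was 0.30 ± 0.10 (SE, adjusted p = 0.192, edgeR quasi-likelihood test, adjusted by Benjamini-Hochberg). Without replicate 3 of Asxl1Y588XTg it was 0.43 and passed the threshold (adjusted p = 0.0440 by the same test), on 2 libraries against 3. Kmt2e had 3638, 3637 and 3843 in Asxl1Y588XTg and 3792, 4211 and 4378 in Asxl1Y588XTg Kdm6bΔ/+, which overlap, with a log2 fold change of 0.17 ± 0.08 (SE). The count of 2 members at an unadjusted p under 0.05 was 7 without replicate 3 of Asxl1Y588XTg, 0 without its replicate 2, 1 without its replicate 1 or without replicate 2 or 3 of Asxl1Y588XTg Kdm6bΔ/+, 4 without replicate 1 of the latter, and 0 in a fit of all 4 genotypes with a term for the presence of Y-linked transcripts. The median over the 10 members was 0.10, against 0.00 over all genes tested. An offset for exon length and GC content moved it to 0.23, where the all-gene median was 0.042, and called Kmt2d and Setd1b. A centred form of that offset, chosen after these data were seen, called 0 members. The fit without an expression filter called Kmt2d. The count of members at an unadjusted p under 0.05 was 5 with the offset and 4 with its centred form. It was 2 to 4 with the other fits that lacked the Y-linked term.

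**Figure D2:**
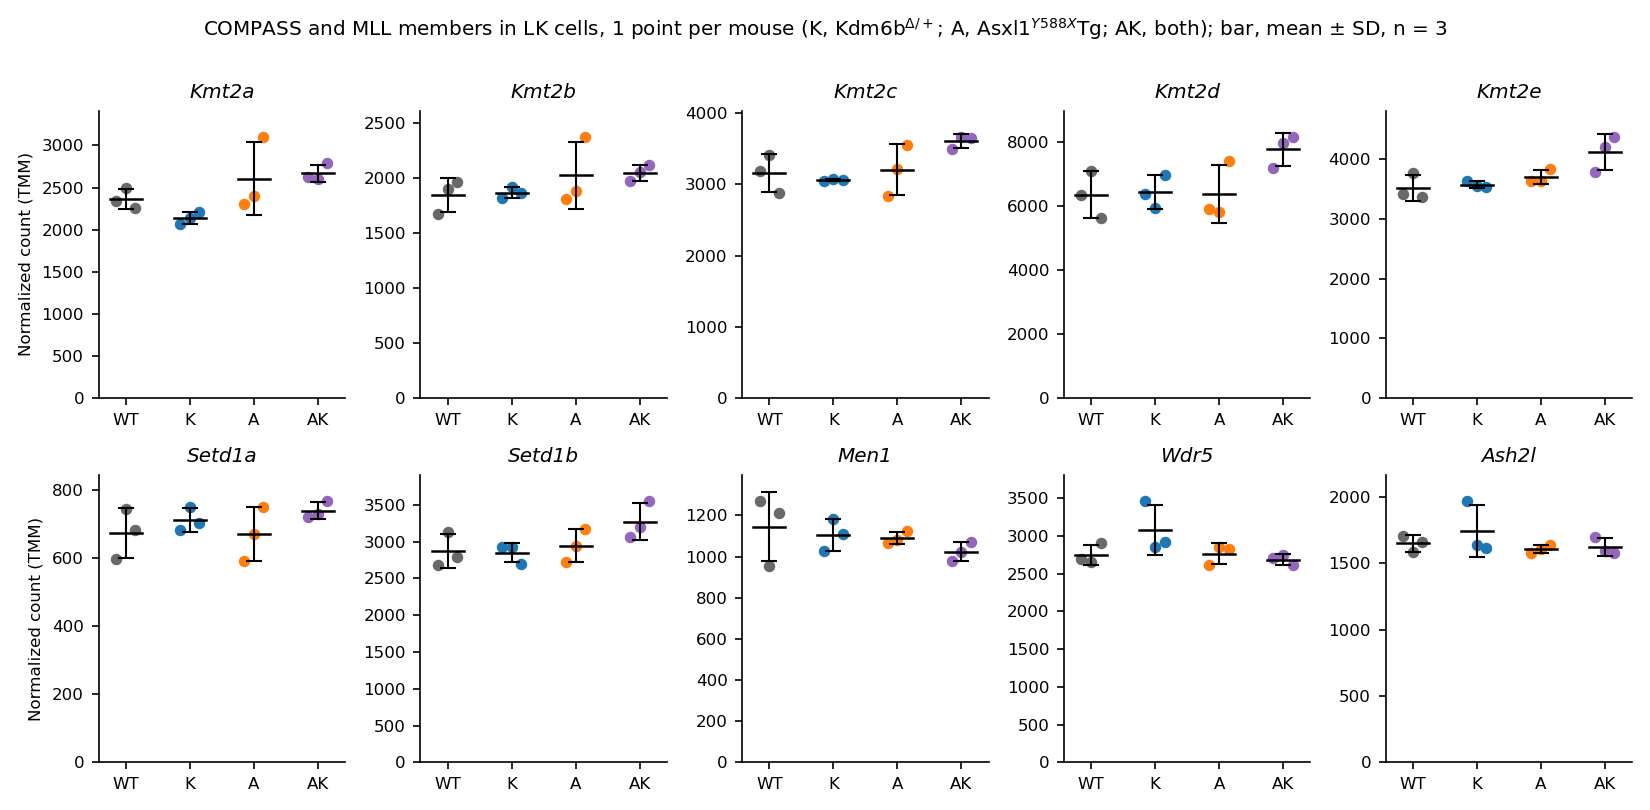
Normalized counts of the 10 members (y axes from 0), 1 point per mouse, with the mean and SD of 3 mice for WT, Kdm6bΔ/+ (K), Asxl1Y588XTg (A) and Asxl1Y588XTg Kdm6bΔ/+ (AK). Kmt2d lies between 7199 and 8180 in AK and between 5640 and 7112 in WT, and replicate 3 of A is at 7431.

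In Kdm6bΔ/+ against WT cells, 0 of 10 members were called (0.0948% of genes tested), and none had an unadjusted p under 0.05 (3.49%). One member was separated between the genotypes, where 8.93% of genes tested were. This was Kmt2a, with 2071, 2142 and 2216 in Kdm6bΔ/+, all below the lowest WT library at 2255, and a log2 fold change of -0.14 (95% interval -0.31 to 0.03). The median log2 fold change of the members was 0.02. Wdr5 had 3464, 2853 and 2923 in Kdm6bΔ/+ and 2697, 2656 and 2903 in WT, with a log2 fold change of 0.16 (-0.04 to 0.36). Replicate 1 of Kdm6bΔ/+ was high both for Wdr5 and for Ash2l, which had 1972, 1642 and 1620 in that genotype and 1706, 1586 and 1660 in WT. It was also the library with the fewest counts, 14451522, and the part of depth in these values was not tested.

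Asxl1Y588XTg Kdm6bΔ/+ cells were then compared with the genotypes without the transgene. These comparisons use the same Asxl1Y588XTg Kdm6bΔ/+ libraries as the one above and are not independent of it. Against WT, 0 of 10 members were called (0.227% of genes tested). The unadjusted p was under 0.05 for 5 members (6.79% of genes tested), all higher in Asxl1Y588XTg Kdm6bΔ/+: Kmt2a, Kmt2c, Kmt2d, Kmt2e and Setd1b. This count of 5 was 1 without WT replicate 1, WT replicate 3 or replicate 2 or 3 of Asxl1Y588XTg Kdm6bΔ/+, 1 with the term for Y-linked transcripts, 0 with the offset and 1 with its centred form. It was 6 without WT replicate 2 (5 of them higher) and 5 without replicate 1 of Asxl1Y588XTg Kdm6bΔ/+. DESeq2, RLE scaling, no filter and a mean count of at least 50 also gave 5. A replicate block and 1 fit of all genotypes gave 4. The genotypes were separated for Kmt2a, Kmt2b, Kmt2c, Kmt2d and Kmt2e, 5 of 10 members, where 13.5% of genes tested were separated in either direction. Kmt2d had a log2 fold change of 0.30 ± 0.10 (SE) with an adjusted p of 0.538 (edgeR quasi-likelihood test, adjusted by Benjamini-Hochberg). Kmt2c had 3192, 3407 and 2874 in WT and 3488, 3666 and 3653 in Asxl1Y588XTg Kdm6bΔ/+, a log2 fold change of 0.20 ± 0.08 (SE). All 3 Asxl1Y588XTg Kdm6bΔ/+ libraries were higher, the lowest by a small margin over WT replicate 2. Setd1b had 2682, 3130 and 2796 in WT and 3061, 3199 and 3554 in Asxl1Y588XTg Kdm6bΔ/+, which overlap, with a log2 fold change of 0.20 (0.00 to 0.40). The median over the members was 0.18, against 0.00 over all genes tested, and it was 0.21 in a fit of all 4 genotypes that included the presence of Y-linked transcripts, in which 0 members passed. These transcripts were in all Asxl1Y588XTg Kdm6bΔ/+ libraries and in no WT library. That term was thus estimated from the other genotypes, and this pair alone cannot separate sex from genotype. An offset for exon length and GC content lowered the member median from 0.18 to 0.032, and its centred form to 0.086. The all-gene median was -0.085 with the offset and -0.0036 with its centred form.

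Against Kdm6bΔ/+, which lacks the transgene, 0 of 10 members were called (0.101% of genes tested). The unadjusted p was under 0.05 for 6 members (12.2% of genes tested), with Kmt2a, Kmt2c, Kmt2d, Kmt2e and Setd1b higher and Wdr5 lower. This count of 6 was 3 without replicate 3 of Asxl1Y588XTg Kdm6bΔ/+, 3 with the offset (1 of them higher) and 3 with its centred form (2 higher). It was 5 or 6 without any other library and 6 in the other fits. The genotypes were separated for 7 members (18.9% of genes tested), namely these 6 and Kmt2b, which was higher. Kmt2a came nearest to the threshold, with 2631, 2597 and 2786 in Asxl1Y588XTg Kdm6bΔ/+ and a difference of 0.32 ± 0.07 on the log2 scale (SE, adjusted p = 0.115, edgeR quasi-likelihood test, adjusted by Benjamini-Hochberg). DESeq2 on the same 6 libraries called it, with a log2 fold change of 0.32 and an adjusted p of 0.0125. Its level in Kdm6bΔ/+ was the lowest of the 4 genotypes. Kmt2d had a log2 fold change of 0.28 ± 0.08 (SE) and Kmt2c 0.24 (SE 0.06). Wdr5 had 2703, 2750 and 2611 in Asxl1Y588XTg Kdm6bΔ/+ and a log2 fold change of -0.19 ± 0.08 (SE), which was -0.10 without replicate 1 of Kdm6bΔ/+. The median over the members was 0.17, against 0.00 over all genes tested. With these offsets it was 0.021 and 0.048, where the all-gene medians were -0.083 and -0.0061.

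Other quantities differed alongside. Of the 6 megakaryocyte markers, 1 rose in Asxl1Y588XTg Kdm6bΔ/+ against Kdm6bΔ/+ and 6 were higher at an unadjusted p under 0.05, with summed levels of 88.4 to 108 CPM in Kdm6bΔ/+ and 168 to 255 CPM in Asxl1Y588XTg Kdm6bΔ/+. Of the 7 erythroid markers, 2 fell in Asxl1Y588XTg Kdm6bΔ/+ against WT, with sums of 403 to 571 CPM in WT and 235 to 309 CPM in Asxl1Y588XTg Kdm6bΔ/+. Of the 6 stromal and endothelial markers, 4 were higher at an unadjusted p under 0.05 in the same comparison and 0 passed, with sums of 50.9 to 68.2 CPM in WT and 77.8 to 165 CPM in Asxl1Y588XTg Kdm6bΔ/+. None of these markers was at 0 in all libraries. In bulk samples, fewer cells of a type and less RNA per cell cannot be told apart, and the part of cell makeup in the members' values was not tested. Of the members, 6 lie in the longest 10% of genes tested (exons of at least 9341 bases), and that 10% had median log2 fold changes of 0.05 against WT and 0.06 against Kdm6bΔ/+.

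**Figure D3:**
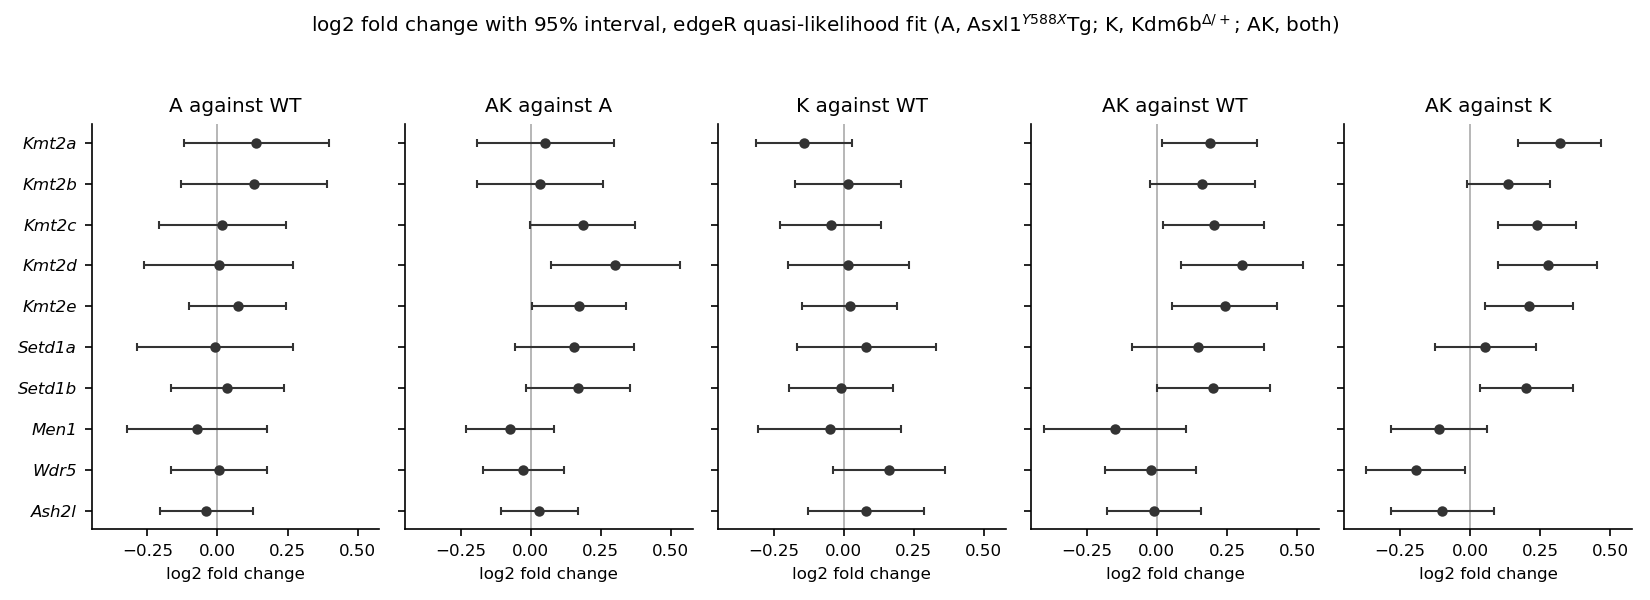
Log2 fold change (x axis) of each member with its 95% interval in the 5 comparisons, from edgeR's quasi-likelihood fit. In the comparisons of AK with WT and with K the 7 methyltransferase genes all lie to the right of 0, and none passed the threshold.

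The interaction (what losing 1 Kdm6b allele did with the transgene, minus what it did without it) was called for 0 of 10 members (0.0126% of genes tested), and none had an unadjusted p under 0.05 (6.87%). The largest estimates were 0.27 for Kmt2d (95% interval -0.05 to 0.59), 0.22 for Kmt2c (-0.03 to 0.47) and -0.20 for Wdr5 (-0.44 to 0.03). These intervals include 0 and also include differences of the size seen between genotypes.

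For the remaining members the intervals bound what these libraries can show. Men1, the menin gene, had 1270, 954 and 1210 in WT, 1027, 1182 and 1110 in Kdm6bΔ/+, 1066, 1079 and 1122 in Asxl1Y588XTg, and 979, 1023 and 1070 in Asxl1Y588XTg Kdm6bΔ/+. WT alone spanned the whole range, and the log2 fold change of Asxl1Y588XTg Kdm6bΔ/+ against WT was -0.15 (-0.40 to 0.10). Ash2l had 1580, 1608 and 1640 in Asxl1Y588XTg and 1702, 1594 and 1579 in Asxl1Y588XTg Kdm6bΔ/+, a log2 fold change of 0.03 (-0.11 to 0.17). Setd1a had 597, 743 and 681 in WT and 721, 728 and 768 in Asxl1Y588XTg Kdm6bΔ/+, which overlap, with a log2 fold change of 0.15 (-0.09 to 0.38).

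Across the 12 libraries, log2 CPM of the 7 methyltransferase genes were positively correlated in 21 of 21 pairs, with Pearson r from 0.43 to 0.90 and a median of 0.71. Of the 45 pairs of members, 13 had an adjusted p under 0.05 (two-sided permutation test of Pearson r with 100000 resamples, Benjamini-Hochberg adjustment over 45 pairs), and all 13 were pairs of methyltransferase genes. The rest of the 21 methyltransferase pairs did not pass, among them Kmt2a with Setd1a (r of 0.43, adjusted p = 0.27 by the same permutation test). The permutations ran over all 12 libraries regardless of genotype, so differences between genotypes enter these p-values. Kmt2e and Setd1b were closest, with r of 0.90 (adjusted p = 9e-04) and Spearman rho of 0.88 (adjusted p = 0.0137) by that permutation test. Without the 2 libraries farthest from the median of Kmt2e, r was 0.82. For Kmt2c and Kmt2d, which share a role at enhancers, r was 0.87 (adjusted p = 0.00684) and rho 0.82 (adjusted p = 0.0138) by permutation, and r was 0.78 without the 2 farthest libraries. For Kmt2a and Kmt2b, which both bind menin, r fell from 0.79 to 0.43 without the 2 farthest libraries. The relations were also present within genotypes, where deviations from the genotype means gave r from 0.45 to 0.85 over the 21 pairs, without a test.

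The subunit genes had other patterns. Men1 was negatively correlated with each methyltransferase gene (r from -0.54 to -0.19), and none of these 7 pairs passed. Wdr5 and Ash2l had r of 0.83 (adjusted p = 0.0553) and rho of 0.58 (adjusted p = 0.102) by the same permutation test. Their r was 0.13 without the 2 farthest libraries, so the relation rests on them. The mean centred log2 CPM of the 7 methyltransferase genes was highest in replicate 3 of Asxl1Y588XTg Kdm6bΔ/+ (0.20), replicate 3 of Asxl1Y588XTg (0.17) and replicate 2 of Asxl1Y588XTg Kdm6bΔ/+ (0.14), and lowest in replicate 1 of Asxl1Y588XTg (-0.13). The Asxl1Y588XTg libraries alone thus covered most of its range.

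Of 9770 genes whose mean count reached 100, the 3 whose pattern was nearest to that mean over the 12 libraries were Rbbp6 (r of 0.95), Spen (0.95) and Arid1a (0.93). They encode a ubiquitin ligase, a transcriptional repressor and a chromatin remodeling subunit. Their exons are 12915, 14089 and 11476 bases long. Of all genes tested, which include the methyltransferase genes that make up the mean, 64 (0.404%) had r of at least 0.8 with the mean pattern. The median r was 0.17 in the longest 10% of genes and 0.00 over all genes tested, and the part of transcript length in the shared pattern was not tested.

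**Figure D4:**
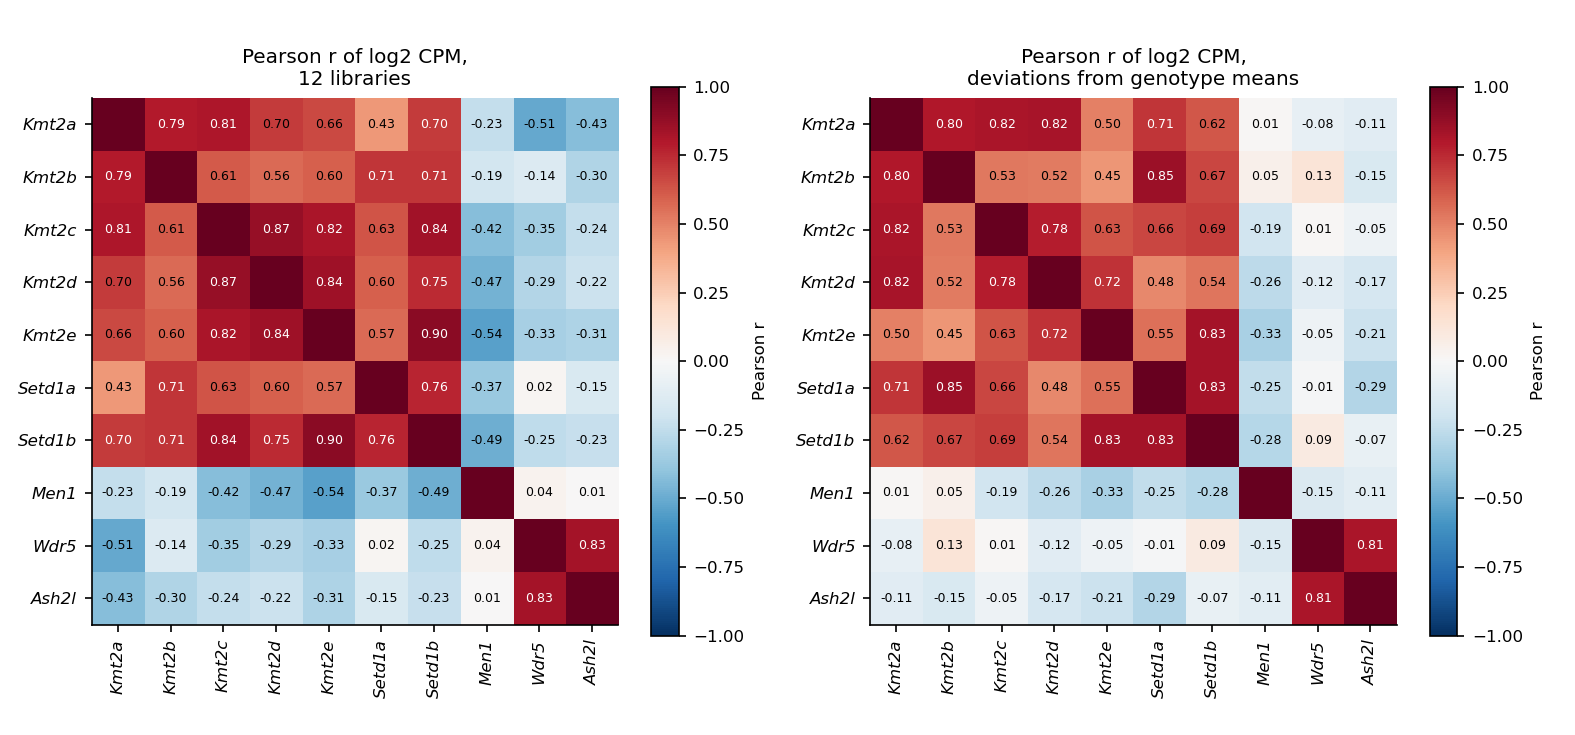
Pearson r of log2 CPM for each pair of members over the 12 libraries (left) and over deviations from the genotype means (right), with red for positive and blue for negative values. The 7 methyltransferase genes form a block of positive values, 0.43 to 0.90 on the left. Wdr5 and Ash2l have r of 0.83 on the left, which did not pass the threshold. Without the 2 libraries farthest from the median of Wdr5 it was 0.13.

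Other genes of the pathway were described from lists of partners. Among 12 tested subunits of the same complexes, 1 fell and 0 rose in Asxl1Y588XTg Kdm6bΔ/+ against WT, and none passed in the other comparisons. This was Kdm6a, the X-linked H3K27 demethylase of the MLL3 and MLL4 complexes, which fell by 0.72 on the log2 scale (adjusted p = 0.00269, edgeR quasi-likelihood test, adjusted by Benjamini-Hochberg). Its normalized counts were 2060 to 2256 in WT and 1259 to 1303 in Asxl1Y588XTg Kdm6bΔ/+. Of the 6 H3K4 demethylases, X-linked Kdm5c fell by 0.57 in the same comparison (adjusted p = 0.0272 by the same edgeR test). Its Y-linked counterpart Kdm5d passed as higher, with 0 to 2 raw counts in WT and 547 to 699 in Asxl1Y588XTg Kdm6bΔ/+. Kdm5d is itself among the Y-linked genes by which the libraries were sorted, and Kdm6a and Kdm5c were lower where Y-linked transcripts were present within genotypes too. Kdm6a had 1268 and 1334 in the Kdm6bΔ/+ libraries with Y-linked transcripts and 2097 in the one without, and 1233 in the Asxl1Y588XTg library with them and 2163 and 2150 in those without. Kdm5c had 3230 and 3427 against 4353 in Kdm6bΔ/+, and 3098 against 3956 and 4581 in Asxl1Y588XTg. In 1 fit of all 4 genotypes, an alternative chosen after these data were seen, the difference of Kdm6a against WT was -0.73 on the log2 scale, and 0.02 (95% interval -0.20 to 0.23) when the presence of Y-linked transcripts was a term. For Kdm5c it was -0.58 and, with the term, -0.16 (-0.42 to 0.10). Y-linked transcripts were in all of the Asxl1Y588XTg Kdm6bΔ/+ libraries and in none of the WT libraries, so the term rests on the other two genotypes.

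Of 12 fusion and elongation partners of MLL1, Mllt6 (AF17) rose in Asxl1Y588XTg against WT and fell in Asxl1Y588XTg Kdm6bΔ/+ against Asxl1Y588XTg. Its normalized counts were 343 to 417 in WT, 546 to 757 in Asxl1Y588XTg and 386 to 438 in Asxl1Y588XTg Kdm6bΔ/+. The log2 fold changes were 0.74 (adjusted p = 0.0383) and -0.59 (adjusted p = 0.0431) by the edgeR quasi-likelihood test, adjusted by Benjamini-Hochberg. In Asxl1Y588XTg Kdm6bΔ/+, 11 of the 12 partners were above 0 and 1 below, both against WT (median 0.098) and against Kdm6bΔ/+ (median 0.12). None of the 12 partners passed in either comparison. Of the 12 tested subunits above, 4 were above 0 and 8 below in each of these comparisons. Of 16 tested targets of MLL1 and menin, 3 rose in Asxl1Y588XTg against WT and 3 fell in Asxl1Y588XTg Kdm6bΔ/+ against Asxl1Y588XTg. These were Meis1, Mecom and Prdm16, transcription factor genes of stem cells, each passing in both. Both comparisons use the same Asxl1Y588XTg libraries, and the study named Meis1 and Prdm16 from these libraries, so the list is not independent evidence. Mecom had normalized counts of 105 to 143 in WT, 380 to 658 in Asxl1Y588XTg and 122 to 194 in Asxl1Y588XTg Kdm6bΔ/+. Its log2 fold changes were 1.99 (adjusted p = 0.00423) and -1.55 (adjusted p = 0.0461) by the same edgeR test. Meis1 had 1.26 and -1.07, and Prdm16 had 1.67 and -1.13. The median of the 16 targets was 0.26 and -0.70 in these comparisons, against -0.01 and 0.00 over all genes tested. The 6 megakaryocyte markers were positive in 6 of 6 in Asxl1Y588XTg against WT (median 1.30, 3 with an unadjusted p under 0.05, 0 passed), with sums of 83.3 to 154 CPM in WT and 255 to 685 CPM in Asxl1Y588XTg. In Asxl1Y588XTg Kdm6bΔ/+ against Asxl1Y588XTg, 5 of 6 were negative (median -0.44, 0 passed), and their part in the values of the targets was not tested.

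Of 6 other SET domain enzymes and 13 readers of H3K4 methylation, 0 passed in any comparison. The smallest p values in Asxl1Y588XTg against WT were those of Prdm9 (log2 fold change 0.78, with 27 to 50 raw counts in WT) and Smyd2 (0.22) among the enzymes, and of Ing3 (-0.22) and Ing4 (0.77, with 8 to 12 raw counts in WT) among the readers. Pagr1a and Smyd1 had at most 0 and 2 counts in any library and were not tested.

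**Figure D5:**
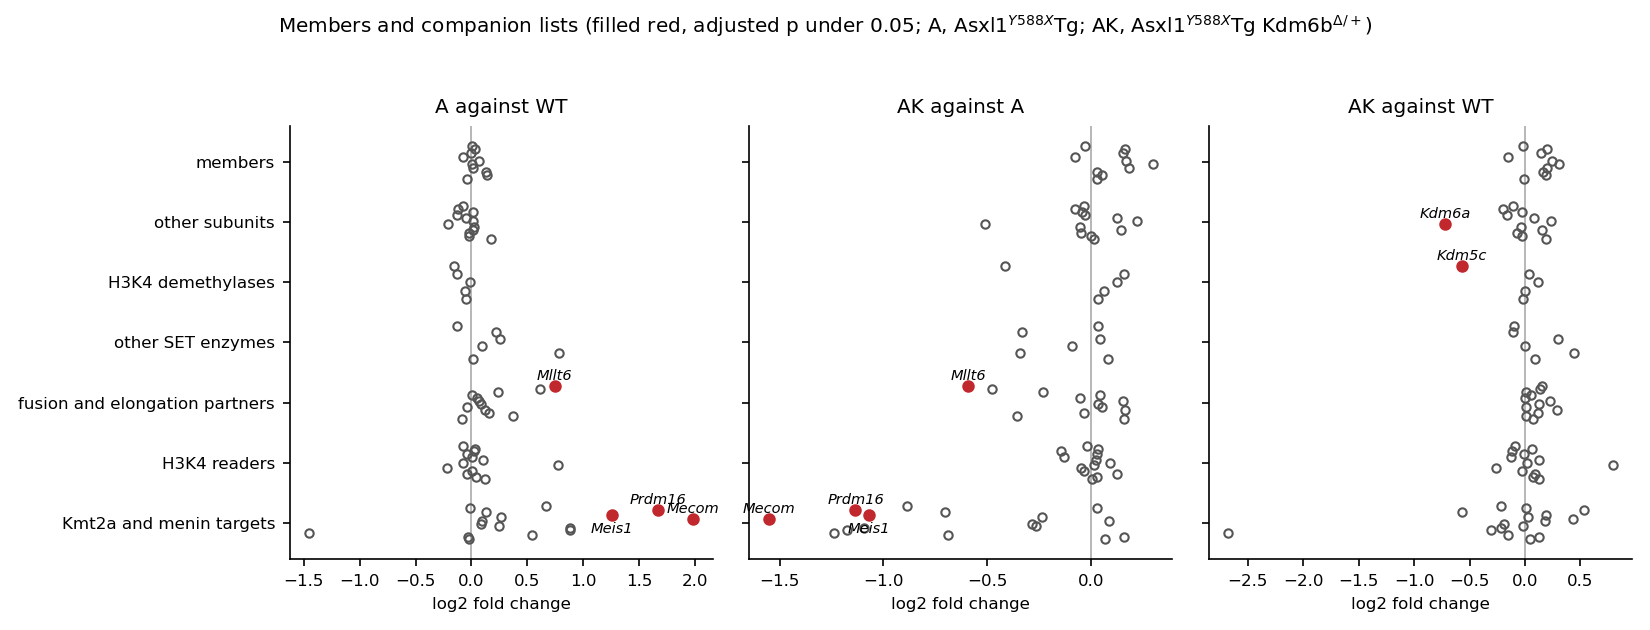
Log2 fold change (x axis) of the members and of 6 lists of related genes in 3 comparisons, 1 point per gene, filled red where the adjusted p was under 0.05. Kdm5d is left out. Members lie between -0.15 and 0.30, and Meis1, Mecom and Prdm16 lie right of 0 in A against WT and left of 0 in AK against A.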

How the data were processed

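RNA of LK cells from 12 mice was sequenced. Per the labels and methods, the authors trimmed reads with Trimmomatic, aligned them with STAR to mm10 and counted them on genes with HTSeq, and the deposited values are raw counts without normalization. The methods name a KAPA stranded kit, the labels an NEB Ultra kit. Annotation and strand setting of the counting are not given in the sources used here, so overlapping genes are uncertain. Columns were matched to genotypes by sample labels.

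Members and lists were chosen with earlier results of these data known. Genes kept by filterByExpr (15825) were tested in R 4.3.3 with edgeR 4.0.16, by robust quasi-likelihood fits to the 6 libraries of each pair after TMM scaling, or to 12 for the interaction. P-values were adjusted by Benjamini-Hochberg over all genes tested, with calls under 0.05. Standard errors came from the F statistic. Each library is 1 mouse, and the p-values of the fits weigh differences between genotypes against the spread between mice. Normalized counts are counts over effective library size times the mean library size. Log2 CPM used a prior count of 2. Exon lengths came from GENCODE vM21 (mm10), matched for all 10 members. Steps were tested on simulated counts. There the main pairwise fit called 2% of 50 genes changed 1.25-fold and 48% of 50 changed 1.5-fold. The interaction fit called 0% and 16%, so most changes of these sizes were missed.

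Named were all members, Kdm6b, Asxl1, genes of each list past the threshold (up to 4 a list and comparison, otherwise the 2 with the smallest p in Asxl1Y588XTg against WT), and the 3 genes nearest the mean pattern. Those 3 were sought among genes outside the members, the partner lists and the marker lists. Alternatives were DESeq2 1.42.0, 1 fit of all genotypes, RLE, no filter, only genes whose mean count reached 50, a replicate block, a term for Y-linked transcripts, a fold above 1.5 as well, each library left out, and an offset for exon length and GC content. A centred form of that offset, fitted on genes whose mean count reached 50, was added after the values of the first form were seen. Replicate numbers did not pair libraries: r of deviations was -0.12 to 0.08 over 18 same-number pairs. Reads and the authors' normalized values were not used here.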

Additional observations from a re-analysis of the deposited data

How the results depend on the processing

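No member passed the threshold under any alternative in Asxl1Y588XTg against WT, in Kdm6bΔ/+ against WT, in Asxl1Y588XTg Kdm6bΔ/+ against WT or in the interaction. In Asxl1Y588XTg Kdm6bΔ/+ against Asxl1Y588XTg, 1 member (Kmt2d) passed without an expression filter, 0 to 1 with a library left out (Kmt2d, without replicate 3 of Asxl1Y588XTg), and 2 (Kmt2d and Setd1b) with the offset for exon length and GC content. In Asxl1Y588XTg Kdm6bΔ/+ against Kdm6bΔ/+, 1 (Kmt2a) passed with DESeq2 and 2 (Kmt2a and Kmt2d) without a filter. The cause of these differences was not tested. With the replicate block the count of members called was 0 in every comparison, and 0 libraries correlated best with their own number.

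The offset for exon length and GC content moved the median log2 fold change of the members from 0.01 to -0.21 in Asxl1Y588XTg against WT, from 0.10 to 0.23 in Asxl1Y588XTg Kdm6bΔ/+ against Asxl1Y588XTg, from 0.18 to 0.032 against WT and from 0.17 to 0.021 against Kdm6bΔ/+. It put all 10 members below 0 in Asxl1Y588XTg against WT, where it also moved the median of all genes from -0.01 to -0.14. For Asxl1Y588XTg Kdm6bΔ/+ it put the median of all genes at 0.042 against Asxl1Y588XTg, -0.085 against WT and -0.083 against Kdm6bΔ/+. The centred form, chosen after these values were seen, put the all-gene median at -0.0028 in Asxl1Y588XTg against WT. For Asxl1Y588XTg Kdm6bΔ/+ it put that median at -0.015 against Asxl1Y588XTg, -0.0036 against WT and -0.0061 against Kdm6bΔ/+. This form called 0 members in every comparison. Its member medians against WT and Kdm6bΔ/+ were 0.086 and 0.048, so how far the members lay above 0 there depends on this choice. In Asxl1Y588XTg Kdm6bΔ/+ against Asxl1Y588XTg, the methyltransferase genes had a median of 0.17, 0.24 with the first form and 0.16 with the centred form. With a library left out, the median ranged from -0.034 to 0.084 in Asxl1Y588XTg against WT and from 0.048 to 0.20 in Asxl1Y588XTg Kdm6bΔ/+ against Asxl1Y588XTg. With 3 mice a genotype, standard errors of 0.06 to 0.12 on the log2 scale in the pairwise comparisons limit what could be detected in the members.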
